A study of Homo sapiens with 8 samples.

Results

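The NRF2 pathway genes are the 9 genes *NFE2L2*, *KEAP1*, *SLC7A11*, *GCLC*, *GCLM*, *TXNRD1*, *SRXN1*, *NQO1* and *HMOX1*, taken by their symbol from the 23193 genes counted in the experiment. Their transcription was measured by PRO-seq, which maps RNA polymerases that are engaged in transcription, in HCT116 cells, a human colorectal carcinoma line. The groups were wild-type (WT) cells in normoxia, WT cells after 90 min in 1% O2, and HIF1A-/- cells in normoxia or after the same hypoxia. There were 2 biological replicate libraries in each of the 4 groups, and every culture received DMSO as vehicle. HIF1A-/- cells are HCT116 cells in which homologous recombination with a viral vector removed a short stretch of 2 *HIF1A* exons and brought in stop codons, and the labels name a single such line. What differs between the lines therefore cannot be told apart from what differs between this knockout line and its parent for other reasons.

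NRF2, the product of *NFE2L2*, is a transcription factor that protects cells against oxidants and reactive chemicals. KEAP1 binds NRF2 and delivers it to a ubiquitin ligase, so that NRF2 is normally degraded, and oxidants modify KEAP1 and let NRF2 accumulate. NRF2 then binds antioxidant response elements together with a small MAF protein and raises the transcription of genes for glutathione synthesis, the thioredoxin system, quinone reduction and haem breakdown. NRF2 is regulated mostly through its protein, so transcription of *NFE2L2* is not a measure of its activity.

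The promoter sequences of 3 of these genes are shown because their reads carry the results below or because they hold a well-known element. They were read from the GRCh37 genome on the strand of each gene, upstream of the transcription start site (TSS) that the count tables use. For *NQO1*, whose antioxidant response element is a textbook example, the window is chr16:69760900-69760928 on the minus strand, with the match to TGACNNNGC in capitals and its first base 385 bases before the TSS. For *SRXN1* (chr20:634015-634164, minus strand) the capitals mark matches to TGAGNNNGC on either strand, a variant of that element. For *SLC7A11* (chr4:139163504-139163653, minus strand) they mark TTGCATCA on either strand, the core of amino acid response elements, which ATF4 binds, and a TGAGNNNGC match.
NQO1: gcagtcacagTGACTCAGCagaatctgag
SRXN1: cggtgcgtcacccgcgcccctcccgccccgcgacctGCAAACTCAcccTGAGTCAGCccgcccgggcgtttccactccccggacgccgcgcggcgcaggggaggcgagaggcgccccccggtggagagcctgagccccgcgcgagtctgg
SLC7A11: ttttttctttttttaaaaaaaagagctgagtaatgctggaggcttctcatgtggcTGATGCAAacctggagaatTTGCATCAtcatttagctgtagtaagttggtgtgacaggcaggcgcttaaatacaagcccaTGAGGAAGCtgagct

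In the 500 bases before the TSS, searched on both strands, TGACNNNGC was found in 2 of the 9 genes, *KEAP1* and *NQO1*, and in 19.09% of the windows of all 23193 genes. TGAGNNNGC was found in 6 of 9 genes against 25.89% of all windows, and TTGCATCA in *SLC7A11*, 1 of 9, against 1.065% of all windows. These 2 motifs were added to the search after the sequences had been read. ACGTG or GCGTG, the core of the hypoxia response element, stood in 7 of 9 windows, against 65.27% of all windows. A match describes letters in this window and was not tested as a binding site, and elements farther upstream lie outside it.

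Gene body totals ran from 18125234 to 23622392 reads per library and TSS totals from 2783581 to 5966348. Replicate 1 of HIF1A-/- cells stood apart in its split between the regions, with 11.2% of its reads in TSS regions in normoxia and 12.9% in hypoxia, against 16.9% to 20.2% in the other 6 libraries. Of 7 genes known to respond to HIF1A, including *PDK1* and *CA9*, 6 were called higher in hypoxic WT cells by edgeR and all 7 with the replicate block described below (median log2 change 2.64), the exception being *CA9* (adjusted p = 0.705 by edgeR and 0.0722 with the block). None of them was called in HIF1A-/- cells by edgeR, with or without the block, and their median there was 0.04. *HIF1A* itself was transcribed in every library, and its log2 difference between HIF1A-/- and WT cells was 0.07 in normoxia and 0.20 in hypoxia. Its reads do not test the genotype label, since the promoter is intact and the deleted part is short. Of 7 markers of colorectal epithelium 6 passed the filter on low counts, all but *CDX1*. Of 9 markers of other cell types 4 passed it, and *PTPRC*, *CD3E*, *PECAM1* and *ALB* were among those that did not.

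All 9 NRF2 pathway genes were transcribed in all 8 libraries and passed the filter on low counts in both regions, with at least 203 gene body reads and 39 TSS reads in any library. Levels are given as TMM-normalized CPM, the counts scaled to library size, and, for comparison between genes, as CPM per kb of the counted region. In WT normoxia the gene body level per kb was highest for *TXNRD1*, at 7.47 ± 0.279 CPM per kb (SD, n = 2), followed by *SRXN1* at 6.58 ± 0.174, *NFE2L2* at 6.30 ± 0.101, *KEAP1* at 5.59 ± 0.260 and *NQO1* at 5.34 ± 0.763. *GCLC* followed at 2.07 ± 0.247 and *GCLM* at 1.86 ± 0.102, the catalytic and modifier subunits of the same enzyme. *HMOX1* at 0.960 ± 0.140 and *SLC7A11* at 0.945 ± 0.0476 were the lowest. Within that order, *KEAP1* and *NQO1*, *GCLC* and *GCLM*, and *HMOX1* and *SLC7A11* lay within the spread between libraries of each other. The upper 5 stood above 89.5% or more of the genes tested, and *HMOX1* and *SLC7A11* above 41.6% and 41.3%.

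TSS levels ordered the genes differently. *NQO1* held the most TSS reads per kb in WT normoxia, at 431 ± 56.9 CPM per kb (SD, n = 2), and *HMOX1* was second at 234 ± 37.9. *NFE2L2*, ranked 3 by gene body level, was the lowest at the TSS, at 37.5 ± 3.42. The pausing index is CPM per kb in the TSS region over that in the gene body, each region normalized on its own. It is therefore not a ratio of raw read densities, and the share of a library's reads in TSS regions does not enter it. The index was 241 and 247 for *HMOX1* in the WT normoxia libraries and 6.27 and 5.63 for *NFE2L2*. The median over all genes was 47.2 and 46.2 in the same libraries. *HMOX1* thus had the highest index of the 9 genes and *NFE2L2* the lowest. The *NFE2L2* start in the tables lies 344 bases from the nearest annotated start, against at most 170 bases for the other 8 genes, and its part in the low index was not tested. The counted gene bodies lay at chr4:139085247-139162502 for *SLC7A11*, chr20:627258-633013 for *SRXN1*, chr22:35778060-35790207 for *HMOX1* and chr2:178095030-178128858 for *NFE2L2* (GRCh37), and hold both exons and introns.

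**Figure D1:**
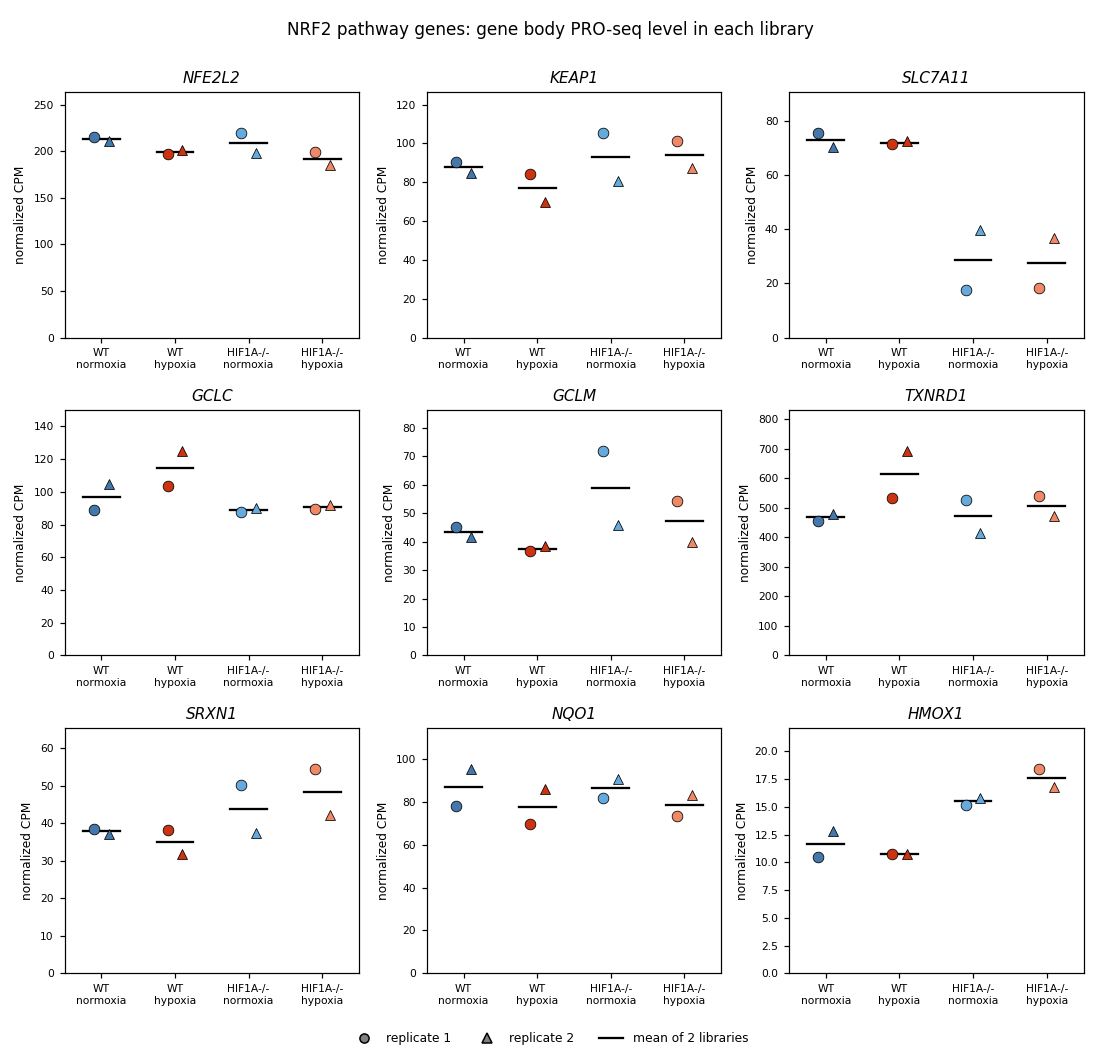
Gene body level of each NRF2 pathway gene in TMM-normalized CPM (y axis) in the 4 groups (x axis), with a point for each library, replicate 1 as circles and replicate 2 as triangles, and a bar at the mean of 2 libraries. *SLC7A11* lies between 17.4 and 39.8 CPM in the HIF1A-/- libraries and between 70.4 and 75.6 CPM in the WT libraries, while most other genes differ little between groups.

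The first question was whether acute hypoxia changed transcription of these genes. In gene bodies, no NRF2 pathway gene was called at a false discovery rate (FDR) of 10% in hypoxic against normoxic WT cells by edgeR, where 0.431% of all 16686 genes were called. None of the 9 had an unadjusted p under 0.05 in that fit, which 4.61% of all genes had. None was called by DESeq2, against 1.05% of all genes, or with the replicate number as a term in the fit (the replicate block), against 5.51%. Their log2 fold changes ran from -0.21 to 0.39 with a median of -0.11, against -0.02 over all genes. In 4 of 9 genes the libraries of the groups did not overlap, which held for 37.7% of all genes. Since levels are shares of a bulk library, a change in the number of cells that transcribe a gene and a change per cell cannot be told apart.

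In HIF1A-/- cells no gene of the 9 was called in gene bodies either, by edgeR, with the replicate block or by DESeq2, and none had an unadjusted p under 0.05. Over all genes, 0% were called by edgeR, 0.0360% with the block and 0.0479% by DESeq2, and 2.08% had an unadjusted p under 0.05. The log2 fold changes ran from -0.32 to 0.19 with a median of 0.02. The groups did not overlap for *HMOX1* alone, against 23.4% of all genes. For the difference between the genotypes in the hypoxia response (WT minus HIF1A-/-), again none of the 9 was called in gene bodies, TSS regions or the pausing index, by edgeR, with the block or by DESeq2, and none had an unadjusted p under 0.05. Of all gene bodies, 0.0539% were called for that difference by edgeR, 0.384% with the block and 0.408% by DESeq2, and 1.36% had an unadjusted p under 0.05. The same shares were 0.00657%, 0.0460%, 0.0197% and 1.18% of TSS regions and 0.0207%, 0.145%, 0.133% and 1.82% of pausing indices.

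**Figure D2:**
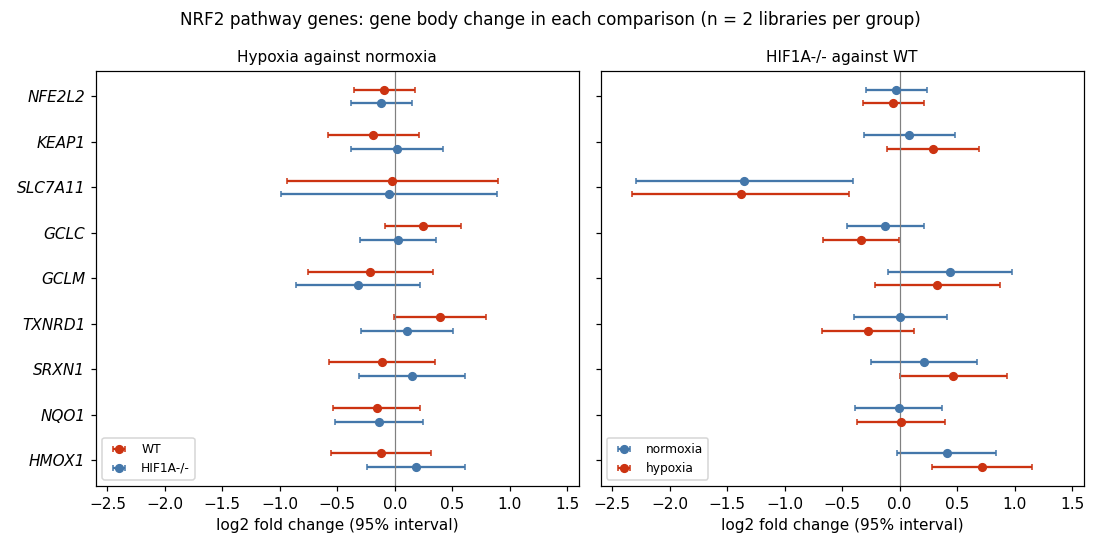
Gene body log2 fold change (x axis) of each NRF2 pathway gene (y axis) with its 95% interval from the edgeR fit, for hypoxia against normoxia in WT (red) and HIF1A-/- cells (blue) on the left, and for HIF1A-/- against WT cells in normoxia (blue) and hypoxia (red) on the right. All intervals on the left hold 0 in this fit without the replicate block, and on the right *SLC7A11* lies near -1.35 and -1.38.

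Values for the regulators were small. *NFE2L2* gene body levels were 215 and 211 CPM in normoxic WT libraries and 197 and 202 in hypoxic ones, and 220 and 198 in normoxic HIF1A-/- libraries and 199 and 186 in hypoxic ones. Both WT hypoxia libraries lay below both WT normoxia libraries, while the HIF1A-/- groups overlapped. The log2 fold change in WT hypoxia was -0.09 (95% interval -0.36 to 0.17), the narrowest interval among the 9 genes, and -0.12 (-0.39 to 0.15) in HIF1A-/- cells. *KEAP1*, which encodes the adaptor that targets NRF2 for degradation, gave 90.6 and 84.8 CPM in normoxic and 84.2 and 70.0 in hypoxic WT libraries, then 105 and 80.7 in normoxic and 101 and 87.2 in hypoxic HIF1A-/- libraries. Its log2 fold change in WT hypoxia was -0.19 (-0.59 to 0.21). Replicate 1 was the higher library in all 4 groups for *KEAP1*.

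*TXNRD1*, which encodes the cytosolic thioredoxin reductase that keeps thioredoxin reduced, had the largest gene body log2 fold change of the 9 genes in WT hypoxia. Its levels were 456 and 480 CPM in normoxic WT cells against 533 and 693 in hypoxic WT cells, and 527 and 414 in normoxic against 540 and 472 in hypoxic HIF1A-/- cells. The WT groups did not overlap, but the highest library, replicate 2 of WT hypoxia, lay far above the other one. The log2 fold change was 0.39 (95% interval -0.01 to 0.79), with an unadjusted p of 0.0555 and an adjusted p of 0.897 by edgeR. With the replicate block it was 0.39 (0.04 to 0.75), with an unadjusted p of 0.0348 and an adjusted p of 0.208. When replicate 2 of WT hypoxia was left out, the log2 fold change without the block was 0.19. In HIF1A-/- cells the log2 fold change was 0.10 (-0.30 to 0.51) and the groups overlapped.

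The genes of glutathione synthesis gave small values in both directions. *GCLC*, the catalytic subunit of glutamate-cysteine ligase, had 88.6 and 105 CPM in normoxic WT libraries and 104 and 125 in hypoxic ones, against 87.9 to 91.7 in all 4 HIF1A-/- libraries. Its WT groups overlapped, with a log2 fold change of 0.24 (95% interval -0.09 to 0.57) in WT cells and 0.03 (-0.31 to 0.36) in HIF1A-/- cells. With the replicate block the WT value was 0.24 (0.02 to 0.46, unadjusted p = 0.0361, adjusted p = 0.212). Without the block it was 0.11 when replicate 2 of WT hypoxia was left out. *GCLM*, the modifier subunit, had 45.2 and 41.8 CPM in normoxic WT libraries and 36.6 and 38.4 in hypoxic ones, and its log2 fold change was -0.21 (-0.75 to 0.33). In HIF1A-/- cells *GCLM* was at 71.9 and 45.8 CPM in normoxia and 54.2 and 40.0 in hypoxia, so that the spread between replicates was larger than that between oxygen levels. *SLC7A11*, which imports cystine for glutathione synthesis, had log2 fold changes in hypoxia of -0.02 (-0.94 to 0.90) in WT and -0.05 (-0.99 to 0.88) in HIF1A-/- cells. These intervals are the widest of the 9 genes and in WT cells allow a ratio of hypoxia to normoxia from 0.521 to 1.86.

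*NQO1*, which reduces quinones, was at 77.9 and 95.4 CPM in normoxic and 69.5 and 85.8 in hypoxic WT libraries, then 81.9 and 90.5 in normoxic and 73.4 and 83.3 in hypoxic HIF1A-/- libraries. Replicate 2 was the higher library in every group, and the groups overlapped in each comparison. The log2 fold change in hypoxia was -0.16 (95% interval -0.54 to 0.22) in WT and -0.14 (-0.52 to 0.24) in HIF1A-/- cells. *HMOX1*, which encodes haem oxygenase 1, had log2 fold changes of -0.12 (-0.55 to 0.31) in WT and 0.19 (-0.24 to 0.61) in HIF1A-/- cells. *SRXN1*, which restores overoxidized peroxiredoxins, had gene body log2 fold changes of -0.11 (-0.58 to 0.35) in WT and 0.15 (-0.32 to 0.61) in HIF1A-/- cells.

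At the TSS, *SRXN1* stood out. Its TSS levels were 78.4 and 45.2 CPM in normoxic WT cells against 35.1 and 24.2 in hypoxic WT cells, and 64.8 and 39.7 in normoxic against 52.1 and 42.9 in hypoxic HIF1A-/- cells. Both WT hypoxia libraries lay below both WT normoxia libraries and below all HIF1A-/- libraries, and replicate 1 was the higher in every group. Within each replicate the WT hypoxia library was 2.23-fold and 1.87-fold lower than the WT normoxia library. The log2 fold change was -1.07 (95% interval -1.75 to -0.38, unadjusted p = 0.00521), which was not called by edgeR (adjusted p = 0.922) and was called with the replicate block (log2 fold change -1.04, adjusted p = 0.00780). Over the 13 alternatives its adjusted p ran from 0.00780 to 1, and it was called under 2 of them. Without replicate 1 of WT normoxia the log2 fold change was -0.60.

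No NRF2 pathway gene was called at the TSS in WT hypoxia by edgeR, where 0.0460% of all 15212 TSS regions were called, *SRXN1* had an unadjusted p under 0.05, as 4.02% of all regions had, and DESeq2 called none, against 0.0986%. With the replicate block *SRXN1* was the only gene of the 9 called, against 1.01% of all TSS regions. In 2 of 9 genes, *SRXN1* and *NFE2L2*, the WT groups did not overlap, against 34.7% of all TSS regions. In HIF1A-/- cells the *SRXN1* TSS log2 fold change was -0.13 (95% interval -0.82 to 0.56), and none of the 9 was called by edgeR, the block or DESeq2 or had an unadjusted p under 0.05. Of all TSS regions 0%, 0.00657% and 0% were called there and 0.887% had such a p, and no gene of the 9 had groups without overlap, against 23.7%. The difference of the *SRXN1* response between genotypes was -0.94 (-1.91 to 0.03, unadjusted p = 0.0567, adjusted p = 1.00 by edgeR and 0.846 with the block), so it was not shown to differ.

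**Figure D3:**
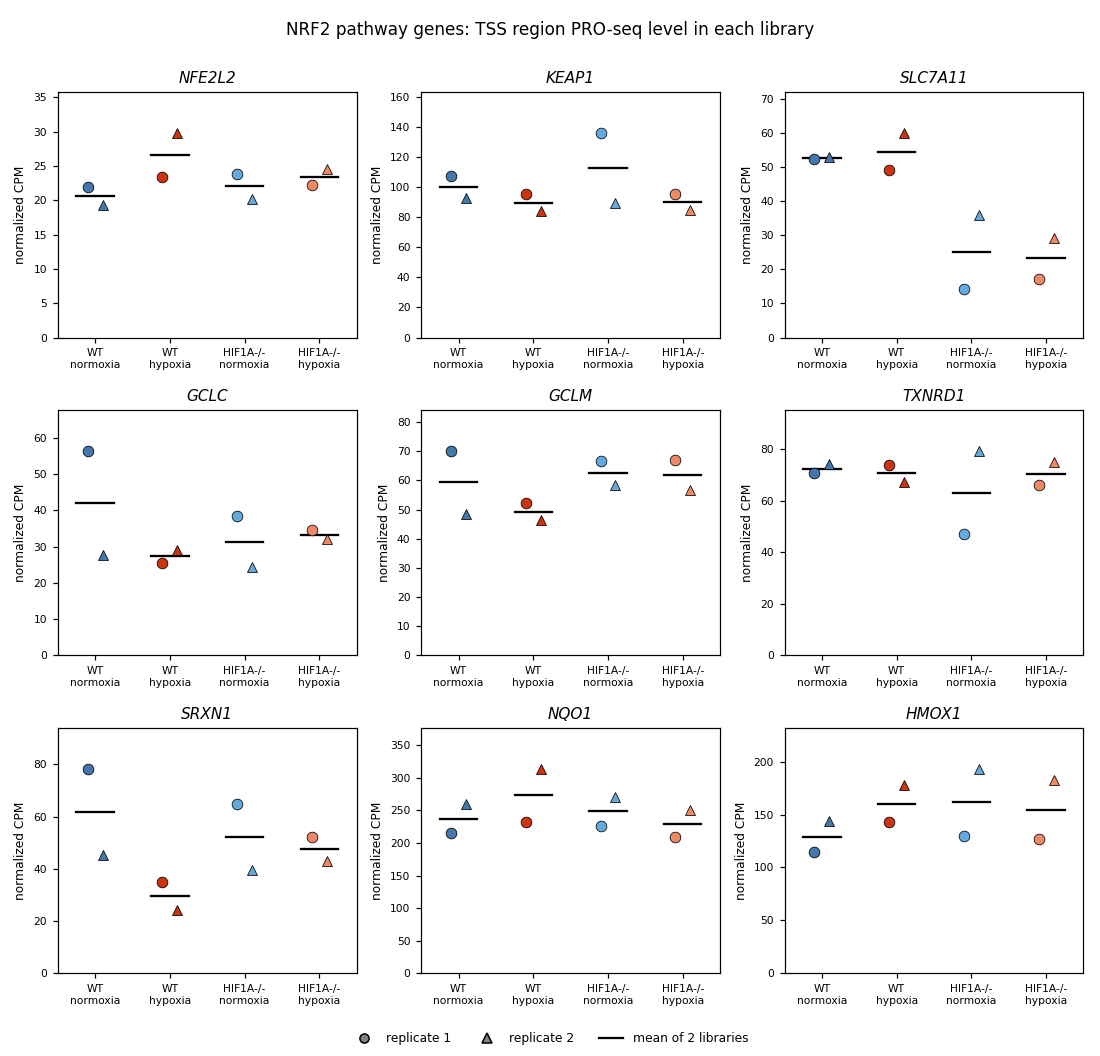
TSS level of each NRF2 pathway gene in TMM-normalized CPM (y axis) in the 4 groups (x axis), with a point for each library, replicate 1 as circles and replicate 2 as triangles, and a bar at the mean of 2 libraries. The WT hypoxia libraries of *SRXN1*, at 35.1 and 24.2 CPM, lie below the other 6, and *SLC7A11* is lower in every HIF1A-/- library than in every WT library.

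The pausing index of *SRXN1* was 21.2 and 12.7 in normoxic and 9.59 and 7.92 in hypoxic WT libraries, then 13.5 and 11.1 in normoxic and 9.96 and 10.6 in hypoxic HIF1A-/- libraries. It was lower in hypoxia than in normoxia without overlap in both genotypes. The log2 change in WT cells was -0.93 (95% interval -1.50 to -0.36, unadjusted p = 0.00333, adjusted p = 0.695 by edgeR and 0.106 with the replicate block), and -0.25 (-0.82 to 0.32) in HIF1A-/- cells. *GCLC* had an index of 54.0 and 22.4 in WT normoxia and 20.8 and 19.8 in WT hypoxia, with a log2 change of -0.82 (-1.53 to -0.12, unadjusted p = 0.0244, adjusted p = 0.872), and replicate 1 of WT normoxia alone lay far above the other 3 WT libraries. None of the 9 genes was called for the pausing index in WT hypoxia by edgeR, the block or DESeq2, and *SRXN1* and *GCLC* had an unadjusted p under 0.05. Of all genes, 0.193% were called by edgeR, 0.483% with the block and 0.214% by DESeq2, and 5.20% had such a p. In 6 of 9 genes the WT groups did not overlap, against 35.6% of all genes, with *NFE2L2*, *NQO1* and *HMOX1* higher and *GCLC*, *TXNRD1* and *SRXN1* lower in hypoxia. In HIF1A-/- cells 3 of 9 did not overlap, against 24.5% of all genes. None of the 9 was called there by edgeR, the block or DESeq2, as for 0% of all genes with each, and none had an unadjusted p under 0.05, which 1.58% of all genes had.

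**Figure D4:**
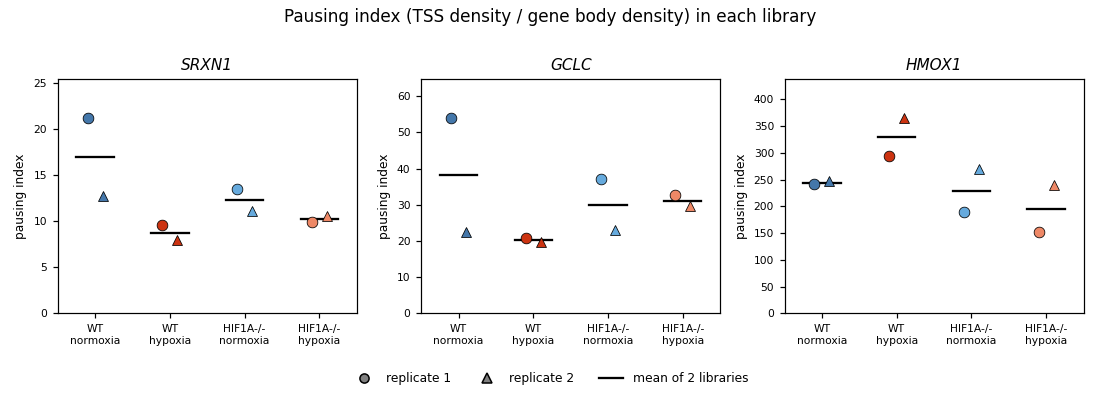
Pausing index (TSS CPM per kb over gene body CPM per kb, y axis) of *SRXN1*, *GCLC* and *HMOX1* in the 4 groups (x axis). Each library has a point, with a bar at the mean of 2 libraries. *SRXN1* is at 21.2 and 12.7 in WT normoxia and 9.59 and 7.92 in WT hypoxia, and *HMOX1* is at 294 and 366 in WT hypoxia against 152 and 239 in HIF1A-/- hypoxia.

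The second question was how the genes differed between the lines. *SLC7A11* was lower in HIF1A-/- cells at both oxygen levels. Its gene body levels were 75.6 and 70.4 CPM in normoxic WT cells against 71.5 and 72.5 in hypoxic WT cells, and 17.4 and 39.8 in normoxic against 18.3 and 36.8 in hypoxic HIF1A-/- cells. All 4 HIF1A-/- libraries lay below all 4 WT libraries, and within HIF1A-/- cells replicate 1 was far below replicate 2 at both oxygen levels. In normoxia replicate 1 was 4.34-fold lower than its WT counterpart and replicate 2 was 1.77-fold lower, and in hypoxia the values were 3.90-fold and 1.97-fold.

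The *SLC7A11* gene body log2 difference was -1.35 (95% interval -2.29 to -0.41) in normoxia and -1.38 (-2.33 to -0.44) in hypoxia. It was not called by edgeR (adjusted p = 0.276 and 0.154) but was called with the replicate block (0.0272 and 0.0140) and by DESeq2 (0.0271 and 0.0122). Without replicate 1 of HIF1A-/- normoxia the difference in normoxia was -0.84, and without replicate 1 of HIF1A-/- hypoxia that in hypoxia was -0.95, neither of them called. Without replicate 2 of HIF1A-/- normoxia it was -2.07 in normoxia and was called (adjusted p = 0.0653 by edgeR). In hypoxia it was -1.99 without replicate 2 of HIF1A-/- hypoxia and was not called, and it was called when either HIF1A-/- normoxia library was left out (adjusted p = 0.0494 and 0.0442). At the TSS the levels were 52.4 and 53.0 CPM in normoxic and 49.0 and 60.0 in hypoxic WT libraries, then 14.1 and 36.0 in normoxic and 17.2 and 29.2 in hypoxic HIF1A-/- libraries. All 4 HIF1A-/- libraries again lay below all 4 WT libraries, and replicate 1 below replicate 2. The TSS log2 difference was -1.04 (-1.83 to -0.25) in normoxia and -1.22 (-2.01 to -0.42) in hypoxia, not called by edgeR (adjusted p = 0.462 and 0.187) and called with the block (0.00935 and 0.00160). Of the 13 alternatives 3 called it in normoxia and 5 in hypoxia. Without replicate 1 of the HIF1A-/- group compared, it was -0.55 in normoxia and -0.90 in hypoxia.

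The TSS and gene body differences of *SLC7A11* were of like size, and its pausing index, from 96.0 to 116 in WT and from 111 to 132 in HIF1A-/- libraries, was not called in any comparison. An antisense gene, *SLC7A11-AS1*, covers 18.2% of the counted gene body on the other strand, with a mean of 8.88 reads per library, so its reads are few beside those of *SLC7A11*, which had 364 or more. The low TSS share of replicate 1 of HIF1A-/- cells moves with the lowest *SLC7A11* values, and its part in the difference was not tested.

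*HMOX1* gene body values were higher in HIF1A-/- cells, a difference called under some settings in hypoxia and under none in normoxia. Its levels were 10.5 and 12.9 CPM in normoxic WT cells against 10.7 and 10.7 in hypoxic WT cells, and 15.2 and 15.8 in normoxic against 18.4 and 16.8 in hypoxic HIF1A-/- cells. All 4 HIF1A-/- libraries lay above all 4 WT libraries. The log2 difference was 0.41 (95% interval -0.02 to 0.84) in normoxia (adjusted p = 0.589 by edgeR, 0.176 with the replicate block and 0.566 by DESeq2) and 0.72 (0.28 to 1.15) in hypoxia (0.110, 0.0164 and 0.0231). Without replicate 1 of HIF1A-/- hypoxia the difference in hypoxia was 0.66 (adjusted p = 0.517 by edgeR). At the TSS, where *HMOX1* carries most of its polymerase per kb, the groups overlapped at both oxygen levels and the log2 difference in hypoxia was -0.05 (-0.53 to 0.44). Its pausing index was lower in hypoxic HIF1A-/- cells, at 152 and 239 against 294 and 366 in WT, with a log2 difference of -0.78 (-1.33 to -0.23, adjusted p = 0.262 by edgeR and 0.0375 with the block). Without replicate 1 of HIF1A-/- hypoxia, the lower of the pair, that difference was -0.47.

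Counts over the 9 genes followed the settings. In normoxia none was called between the lines in gene bodies by edgeR, where 1.78% of all genes were called. *SLC7A11* had an unadjusted p under 0.05, as 9.0% of all genes had, and was the 1 gene called with the replicate block, against 10.3% of all genes, and by DESeq2, against 3.93%. In 3 of 9 genes the lines did not overlap in normoxia, against 32.3% of all genes. In hypoxia none was called in gene bodies by edgeR, where 4.26% of all genes were called, while 4 had an unadjusted p under 0.05, against 15.7% of all genes. DESeq2 called *SLC7A11* and *HMOX1*, 2 of 9, against 8.01% of all genes, and the block called 5 of 9, against 28.2%. In 6 of 9 genes the lines did not overlap in hypoxia, against 45.5% of all genes. The medians over the 9 genes were 0.01 in both comparisons, against -0.01 and 0.00 over all genes.

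The 5 genes called with the block in hypoxia were *SLC7A11* and *GCLC*, lower in HIF1A-/- cells, and *KEAP1*, *SRXN1* and *HMOX1*, higher. *GCLC* was at 89.4 and 91.7 CPM in HIF1A-/- hypoxia against 104 and 125 in WT hypoxia, a log2 difference of -0.34 (95% interval -0.67 to -0.01, adjusted p = 0.311 by edgeR and 0.0459 with the block). *SRXN1* was at 54.6 and 42.3 CPM against 38.2 and 31.9, a difference of 0.47 (0.01 to 0.93, adjusted p = 0.312 by edgeR and 0.0274 with the block). *KEAP1* differed by 0.29 (-0.11 to 0.69, adjusted p = 0.467 by edgeR and 0.0670 with the block). Without replicate 1 of HIF1A-/- hypoxia the edgeR differences of *GCLC*, *SRXN1* and *KEAP1* were -0.31, 0.29 and 0.19, and without replicate 2 of WT hypoxia that of *GCLC* was -0.18. *NFE2L2* differed by -0.03 (-0.29 to 0.24) in normoxia and -0.05 (-0.32 to 0.21) in hypoxia, and *NQO1* by -0.01 (-0.39 to 0.37) and 0.01 (-0.37 to 0.39), the values nearest to 0 among the 9 genes beside *TXNRD1* in normoxia (0.01).

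At the TSS none of the 9 genes was called between the lines by edgeR, where 0.657% of all TSS regions were called in normoxia and 1.10% in hypoxia. *SLC7A11* had an unadjusted p under 0.05 in both, against 7.99% and 13.7% of all regions. With the block *SLC7A11* was called in normoxia, against 4.29% of all TSS regions, and *SLC7A11* and *SRXN1* in hypoxia, against 14.4%, while DESeq2 called none in normoxia, against 0.901%, and *SLC7A11* in hypoxia (adjusted p = 0.0599), against 2.13%. The lines did not overlap in 1 of 9 genes in normoxia and 4 of 9 in hypoxia, against 34.7% and 48.4% of all TSS regions. The *SRXN1* TSS difference in hypoxia was 0.68 (95% interval -0.01 to 1.37, adjusted p = 0.373 by edgeR and 0.0231 with the block), and 0.42 without replicate 2 of WT hypoxia. For the pausing index none of the 9 was called by edgeR or DESeq2 between the lines, where edgeR called 0.0759% of all genes in normoxia and 0.718% in hypoxia and DESeq2 0.284% and 0.905%. In normoxia none had an unadjusted p under 0.05, against 6.33% of all genes, or was called with the block, against 0.683%. In hypoxia *HMOX1* was the 1 gene with such a p, against 12.0%, and the 1 called with the block, against 6.55%. The lines did not overlap in 2 of 9 genes in normoxia and 5 of 9 in hypoxia, against 32.7% and 46.7% of all genes.

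Beyond these 9 genes, 47 other genes of the pathway were listed by role, of which 41 passed the filter in gene bodies. In WT hypoxia edgeR called *MAFF* higher and none of the 41 lower, against 0.431% of all genes called in either direction. The log2 fold change was below 0 in 31 of the 41 genes and above 0 in 10. The median over all genes was -0.02, and the share of all genes below 0 was not counted. The signs come from the same WT libraries and were not tested as a set. *MAFF* encodes a small MAF protein, a class that pairs with NRF2 on DNA. Its gene body levels were 12.0 and 12.7 CPM in normoxic and 30.3 and 38.2 in hypoxic WT libraries, then 22.8 and 15.97 in normoxic and 34.7 and 31.9 in hypoxic HIF1A-/- libraries. Every hypoxia library lay above every normoxia library, in both lines. The log2 fold change was 1.47 ± 0.215 (SE, adjusted p = 0.0515 by edgeR and 0.00829 with the replicate block) in WT cells and 0.78 ± 0.210 (adjusted p = 1 and 0.234) in HIF1A-/- cells. The difference between these responses was 0.69 ± 0.298 (unadjusted p = 0.0499, adjusted p = 1.00 by edgeR and 0.880 with the block). The call in WT cells was lost when any of the 4 WT libraries was left out.

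*MAFF* was also higher at the TSS in WT hypoxia, at 34.7 and 45.8 CPM against 14.9 and 21.4, a log2 fold change of 1.15 ± 0.367 (SE, adjusted p = 0.922 by edgeR and 0.0626 with the block). The other small MAF genes on the list, *MAFG* and *MAFK*, were not called in any comparison, with or without the block. With the block 3 of the 41 genes were called in WT hypoxia, against 5.51% of all genes, the others being *BACH2*, a repressor that also pairs with small MAF proteins (log2 fold change 0.67, adjusted p = 0.0760), and *PRDX1*, a peroxiredoxin (-0.40, adjusted p = 0.0516). The median log2 fold change of the 41 genes was -0.11 in WT and 0.01 in HIF1A-/- cells. In HIF1A-/- cells none of the 41 was called in hypoxia by edgeR or with the block, and 3 of them had an unadjusted p under 0.05, against 0%, 0.0360% and 2.08% of all genes. The 6 genes of NADPH supply had a median of -0.17 in WT hypoxia, against -0.02 over all genes, all 6 of them below 0 and none called. Below 0 there were also all 3 tested thioredoxin and peroxiredoxin genes and 7 of 8 genes of glutathione use and recycling, again without a share of all genes beside them. Of the 10 genes for partners, repressors and degradation of NRF2, 5 were below 0 and 5 above.

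**Figure D5:**
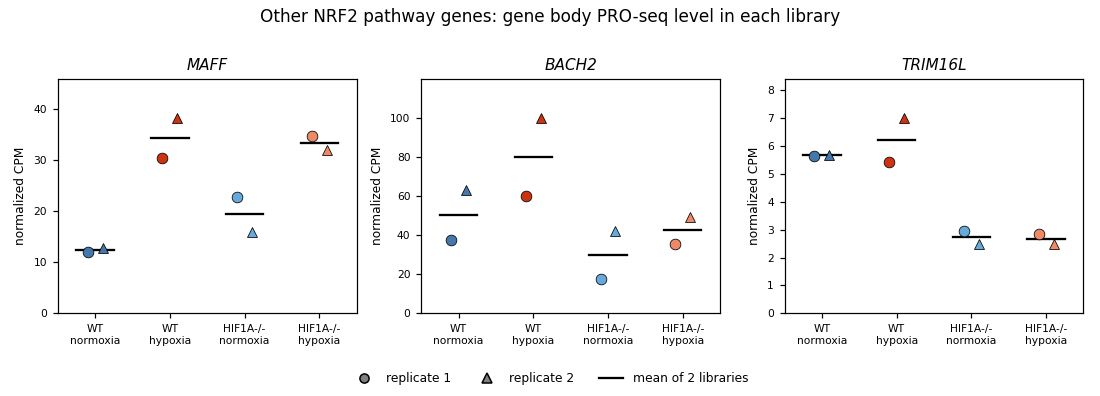
Gene body level in TMM-normalized CPM (y axis) of *MAFF*, *BACH2* and *TRIM16L* in the 4 groups (x axis), with a point for each library and a bar at the mean of 2 libraries. *MAFF* is higher in hypoxia in both lines, and *TRIM16L* is at 5.44 to 7.01 CPM in WT and 2.49 to 2.97 CPM in HIF1A-/- libraries.

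Between the lines, edgeR called 1 gene of the 41, *TRIM16L*, in hypoxia, against 4.26% of all genes, and none in normoxia, against 1.78%. In normoxia 2 of the 41 had an unadjusted p under 0.05, against 9.0% of all genes, and DESeq2 called *TRIM16L*, against 3.93%. Its gene body levels were 5.65 and 5.69 CPM in normoxic WT cells against 5.44 and 7.01 in hypoxic WT cells, and 2.97 and 2.49 in normoxic against 2.86 and 2.49 in hypoxic HIF1A-/- cells. All 4 HIF1A-/- libraries lay below all 4 WT libraries, and the WT hypoxia replicates lay furthest apart. The log2 difference was -1.22 ± 0.282 (SE, adjusted p = 0.0759 by edgeR and 0.00976 with the replicate block) in hypoxia and -1.05 ± 0.282 (0.199 and 0.0338) in normoxia. *TRIM16L* resembles *TRIM16* in sequence, so reads that align to both genes may affect its counts, which was not tested. The call in hypoxia was lost when any 1 of the WT hypoxia, WT normoxia or HIF1A-/- hypoxia libraries was left out. At the TSS the log2 ratios of HIF1A-/- to WT in replicates 1 and 2 were 0.24 and -0.43 in normoxia. In hypoxia these TSS ratios were -1.19 and -2.31.

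With the block, *BACH2* was lower in HIF1A-/- cells in normoxia (log2 difference -0.81, adjusted p = 0.0249) and hypoxia (-0.89, adjusted p = 0.00816), and *MAFF* was higher in normoxia (0.64, adjusted p = 0.0990). In hypoxia the block also called *SQSTM1*, an autophagy receptor that binds KEAP1 (0.37, adjusted p = 0.0171), *PRDX1* (0.27, adjusted p = 0.0491) and *OSGIN1*, an oxidative stress response gene (0.39, adjusted p = 0.0507), all higher in HIF1A-/- cells. That makes 3 of 41 genes called with the block in normoxia, against 10.3% of all genes, and 5 of 41 in hypoxia, against 28.2%. In gene bodies, none of the 8 genes of glutathione use and recycling that passed the filter, the 6 of haem and iron handling or the 6 of NADPH supply was called between the lines in hypoxia, with or without the block. At the TSS in hypoxia the block called 2 listed genes higher and 3 lower, against 14.4% of all TSS regions. The higher ones were 1 gene of haem and iron handling and 1 of NADPH supply. For the pausing index the block called 1 gene of each of these 2 lists higher in hypoxia, against 6.55% of all genes.

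The *NFE2L2* gene body level over the 8 libraries did not follow that of its pathway closely. The 5 genes with the most similar log2 CPM were *USP15* (Pearson r = 0.989), *C14orf166* (0.983), *THOC2* (0.979), *CWC22* (0.973) and *ZMYND11* (0.972), among 16685 other genes tested. Of the other 8 NRF2 pathway genes *GCLM* ranked best, at 2650 (r = 0.565), and *HMOX1* ranked last, at 11909 (r = -0.34). *KEAP1* and *SRXN1* had an r of 0.932 and *SLC7A11* and *SRXN1* of -0.89 over the same libraries. These values describe 8 libraries that share lines, replicate numbers and depth, and carry no test.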

How the data were processed

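PRO-seq gene body and TSS reads were analysed in 8 libraries, mapped to genotype, oxygen and replicate from the sample labels, and every column of values was mapped (0 unmapped). The deposited values are raw counts that the authors made with featureCounts (Subread 1.6.2) after alignment to GRCh37 with HISAT2 2.1.0 without splicing and a mapping quality filter above 10, per their methods. The authors kept a single most active TSS region of 551 bp and a gene body from 1001 bp after the TSS for each gene, so other start sites are not represented. The libraries are labelled strand-specific, but a counting strand is not given in the sources used here. Replicates exceeded sampling noise (chi-square per degree of freedom 21.5 to 37.0 in gene bodies and 5.04 to 9.37 at the TSS), so none was a duplicate.

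Genes with over 0.5 CPM in at least 2 libraries were kept (16686 gene bodies, 15212 TSS regions, 14494 with both). Counts were TMM-normalized and tested with edgeR 4.0.16 (glmQLFit, glmQLFTest) in R 4.3.3, with 4 group means over 8 libraries. Benjamini-Hochberg adjustment ran over every gene of a readout, and an adjusted p under 10% counted as called. To test the pausing index, TSS and gene body counts entered as 16 columns with a term per library, and the printed indices are ratios of CPM per length, each region normalized on its own. Each 95% interval is the log2 fold change ± t times its SE from the same fit. The fit without the replicate block gave the intervals and the counts of unadjusted p under 0.05, unless the block is named. The steps were tested on simulated data with known changes. The simulated libraries held no effect of the replicate number, so they cannot show how the block performs where there is one. Intervals and tests cover the spread between 2 libraries per group, labelled biological replicates.

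Same-numbered libraries deviated together from their group means in all 6 pairs of groups (correlations across genes 0.501 to 0.848 in gene bodies and 0.218 to 0.522 at the TSS), so the numbers, which come from the labels, were taken to pair the samples. The study's methods name no block, and the blocked value is given where it changes a call and for some results that it leaves uncalled. The alternatives were the block, DESeq2 1.42.0, library totals without TMM, no filter, a filter of 1 CPM, and each library left out (13 in all). Named genes are the 9 pathway genes, the 5 genes most correlated with *NFE2L2*, and *HIF1A*. Listed genes are named where called in gene bodies without or with the block (at most 5 per direction). Those called only at the TSS or for the pausing index are counted and not named. The genes, lists and rules were chosen with earlier results of these data known. Sequences were read from the GRCh37 genome, in whose chromosomes all 23193 windows lay. Some items are not reported here.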

Additional observations from a re-analysis of the deposited data

How the results depend on the processing

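Of the 9 NRF2 pathway genes, 0 were called by edgeR in every comparison and readout, and the alternatives changed this as follows. With the replicate block 1 was called at the TSS in WT hypoxia, 1 in gene bodies and 1 at the TSS between the lines in normoxia, and 5 in gene bodies, 2 at the TSS and 1 for the pausing index between the lines in hypoxia. DESeq2 called 1 in gene bodies between the lines in normoxia, and 2 in gene bodies and 1 at the TSS in hypoxia. The shares of all genes called with the block and by DESeq2 stand beside these counts in the results above. Without the low count filter 1 was called at the TSS in WT hypoxia, 1 at the TSS between the lines in normoxia, and 1 at the TSS and 1 for the pausing index in hypoxia. With each library left out in turn the counts between the lines ran from 0 to 1 in gene bodies and from 0 to 1 at the TSS, in normoxia and in hypoxia alike. Of the other 41 listed genes, the block called 3 in WT hypoxia (main count 1), 3 between the lines in normoxia (0) and 5 in hypoxia (1), DESeq2 called 1 in normoxia, and leaving out a library gave 0 to 1 in WT hypoxia and 0 to 1 between the lines in hypoxia. At the TSS the block called 1 of 40 listed genes in WT hypoxia, against 1.01% of all TSS regions. Between the lines it called 3 at the TSS in normoxia, against 4.29%, and 5 in hypoxia, against 14.4%. For the pausing index it called 2 of 39 between the lines in hypoxia, against 6.55% of all genes. The fit without the block called 0 in each of these. Among the 9 and the listed genes the block changed no other count, and the cause of these changes was not tested. The common dispersion in gene bodies was 0.0376 without and 0.0110 with the block.

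Signs turned in results that were not called, most of them close to 0, and in *GCLM* in HIF1A-/- hypoxia (-0.32). The *SLC7A11* log2 fold change in WT hypoxia was 0.010 on library totals without TMM, and the *NQO1* difference between the lines in normoxia was 0.0099 by DESeq2 and 0.015 without the filter. With libraries left out, the gene body log2 fold changes in WT hypoxia ran from -0.071 to 0.031 for *SLC7A11*, -0.25 to 0.022 for *SRXN1* and -0.26 to 0.035 for *HMOX1*. In HIF1A-/- hypoxia they ran from -0.16 to 0.21 for *KEAP1*, -0.65 to 0.66 for *SLC7A11*, -0.0037 to 0.065 for *GCLC*, -0.61 to 0.027 for *GCLM*, -0.058 to 0.27 for *TXNRD1* and -0.054 to 0.36 for *SRXN1*. The difference between these responses ran from -0.029 to 0.10 for *NFE2L2*, -0.69 to 0.65 for *SLC7A11*, -0.23 to 0.40 for *GCLM* and -0.17 to 0.13 for *NQO1*. Between the lines in normoxia the ranges were -0.067 to 0.046 for *NFE2L2*, -0.083 to 0.27 for *KEAP1*, -0.24 to 0.0049 for *GCLC*, -0.14 to 0.17 for *TXNRD1* and -0.15 to 0.15 for *NQO1*, and in hypoxia -0.13 to 0.19 for *NQO1*. With 2 libraries in a group, 1 library can move a value this far.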
